A study of Homo sapiens with 24 samples.

Results

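The MYC, MAX and MXD network is a set of transcription factors that share dimerization partners. Its mRNAs were followed in OE33, an established human line of oesophageal adenocarcinoma (EAC), through 10 genes: MYC, MAX, MXD1, MXI1, MXD3, MXD4, MNT, MGA, MLX and MLXIP. The 10 genes were taken by symbol from the 61860 Ensembl identifiers of each of 4 tables of read counts. All 10 passed the filter on low counts in each of the 4 experiments. In the diet experiment, OE33 cells were grown under the skin of male BALB/c-nu nude mice, which lack T cells. The mice were bought at 4 weeks of age and kept on normal diet (ND) or on high-fat diet (HFD) for 8 weeks before injection of the cells and until the tumours were removed 21 days later. In the TRIM15 experiment, cultured OE33 cells carried a plasmid for HA-tagged TRIM15 (OE-TRIM15) or the empty vector (EV) for 48 h. In the knockdown experiments, cultured OE33 cells were transfected for 72 h with plasmids for a short hairpin RNA against YY2 (shYY2) or FOXRED1 (shFOXRED1), and each had its own shControl. Which hairpin was sequenced is not given in the sources used here, and every cultured group, controls included, had been transfected. Each of the 8 groups held 3 libraries, and all libraries came from 1 cell line. The labels do not say whether the 3 libraries of a group came from separate cultures or mice, so the p-values measure the spread between these libraries, which may be technical.

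MYC protein binds DNA only as a dimer with MAX, at the E-box CACGTG, where it recruits acetyltransferases and drives genes for ribosome making, nucleotide synthesis and growth. MXD1, MXI1, MXD3, MXD4 and MNT also pair with MAX at these sites and bring in SIN3 and histone deacetylases, so they are known as antagonists of MYC, and several of them rise when cells leave the cycle. MGA is another MAX partner and belongs to a Polycomb complex that holds PCGF6, L3MBTL2 and E2F6. MLX is the MAX-like partner of MLXIP (MondoA) and MLXIPL (ChREBP), which sense glucose phosphates and drive TXNIP and ARRDC4. MLX also pairs with MXD1, MXD4 and MNT. MYC is abundant in many carcinomas of the oesophagus. Only mRNA was measured here, and MYC protein, which turns over fast, was not.

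The promoters of the members were read for 3 motifs on both strands. RefSeq promoters (build GRCh38.p14, 250 bases before to 50 bases after a start) were read for 9 of the 10 members, in 14 windows. The promoter of MYC was left out of this reading, so whether it holds these motifs was not tested. The canonical E-box CACGTG, which reads the same on both strands, stood in the promoters of MXD4, MNT and MLX. It stood in 7.26% of all 35116 promoter windows of this length. The E-box variant CACGAG, as found in carbohydrate response elements, stood in no member's window and in 6.78% of all windows. The motif AANATGGC, a core bound by the YY factors, stood only in the window of MNT, where it began 3 bases before the start on the reverse strand, and in 6.58% of all windows. None of the 3 motifs overlapped another in these windows.

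The 250 bases before the start are shown for the 3 members with an E-box and for 2 well-known targets of the network, ARRDC4 and TXNIP, whose mRNAs are described with MLX and MLXIP. Capitals mark CACGTG, or CACGAG in TXNIP, and each sequence runs 5′ to 3′ on the strand of its gene. The E-box began 238 bases before the start in MXD4 (chr4:2262110-2262359, strand -), 193 in MNT (chr17:2401061-2401310, strand -) and 50 in MLX (chr17:42566850-42567099, strand +). It began 210 bases before the start of ARRDC4 (chr15:97960453-97960702, strand +). In TXNIP (chr1:145996580-145996829, strand -) the variant began 88 and 77 bases before the start.
MXD4: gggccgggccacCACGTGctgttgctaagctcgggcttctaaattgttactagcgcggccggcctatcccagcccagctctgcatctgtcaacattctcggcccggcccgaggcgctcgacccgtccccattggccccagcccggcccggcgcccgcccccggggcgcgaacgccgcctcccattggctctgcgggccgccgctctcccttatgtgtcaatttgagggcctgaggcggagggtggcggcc
MNT: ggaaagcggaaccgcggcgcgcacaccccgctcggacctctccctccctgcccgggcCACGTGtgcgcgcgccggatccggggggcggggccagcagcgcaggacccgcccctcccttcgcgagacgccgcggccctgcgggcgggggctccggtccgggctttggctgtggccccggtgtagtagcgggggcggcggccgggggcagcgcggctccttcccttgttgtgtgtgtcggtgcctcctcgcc
MLX: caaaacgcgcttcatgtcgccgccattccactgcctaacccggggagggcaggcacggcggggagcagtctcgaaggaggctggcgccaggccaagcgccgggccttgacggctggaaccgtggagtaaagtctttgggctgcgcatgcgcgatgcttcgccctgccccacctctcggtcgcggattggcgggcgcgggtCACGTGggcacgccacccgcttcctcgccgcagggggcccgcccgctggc
ARRDC4: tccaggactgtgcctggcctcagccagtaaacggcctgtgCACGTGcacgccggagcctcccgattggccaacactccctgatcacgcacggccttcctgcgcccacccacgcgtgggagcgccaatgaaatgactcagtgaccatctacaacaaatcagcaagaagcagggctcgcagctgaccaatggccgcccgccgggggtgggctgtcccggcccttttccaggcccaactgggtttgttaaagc
TXNIP: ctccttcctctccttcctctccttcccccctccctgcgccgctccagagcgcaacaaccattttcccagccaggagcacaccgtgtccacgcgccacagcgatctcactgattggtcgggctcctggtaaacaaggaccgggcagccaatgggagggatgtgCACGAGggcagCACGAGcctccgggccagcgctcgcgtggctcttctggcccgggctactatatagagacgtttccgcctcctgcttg

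RNA-seq gave 14299807 to 45994561 counted reads per library, with the deepest libraries in the diet experiment. Levels below are counts-per-million values (CPM), scaled by the trimmed mean of M-values (TMM) within each experiment, or CPM per kilobase of exon (RPKM) where genes are compared with each other. The targeted genes moved as labelled. TRIM15 was 5.41, 8.45 and 11.4 CPM in OE-TRIM15 and 0 in each EV library, YY2 was 0.669, 0.720 and 0.595 CPM in shYY2 against 2.36, 2.36 and 2.32 in shControl, and FOXRED1 was 10.2, 11.2 and 8.83 CPM in shFOXRED1 against 17.7, 17.2 and 17.3 in shControl. The study knocked down TRIM15 in EAC cells and followed it by Western blot and RT-qPCR. The level of 0 in EV is therefore not read as absence of TRIM15, and whether these counts lost TRIM15 reads was not tested. The epithelial identity of OE33 was present throughout, with all 8 epithelial markers detected in every library and summing to 10389 to 16138 CPM. The 16 markers of fibroblasts, vessels, blood cells and fat summed to 24.5 to 27.2 CPM in HFD against 31.5 to 34.2 in ND, and to 11.5 to 12.1 in OE-TRIM15 against 12.7 to 14.0 in EV. They summed to 43.7 to 45.5 CPM in shYY2 against 11.2 to 11.9 in shControl, and to 39.7 to 43.5 in shFOXRED1 against 24.8 to 26.4. COL1A1, also present in cultured cells, reached a group mean of 42.7 CPM, and each of the other 15 had group means of at most 0.987 CPM. Between 3 and 12 of the 16 were at 0 in a library. The part of these markers in the results was not tested. The markers are human genes, while the host cells of these tumours are mouse cells. Whether mouse reads were removed is not given, so the sums are no measure of host cells. In whole tumours, fewer cells of a type and less RNA per cell cannot be told apart.

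MYC was the most abundant member in every control group. Its mean level ran from 57.0 ± 1.4 RPKM (SD, n = 3) in ND to 101 ± 5.24 in shControl of the FOXRED1 experiment, and no other member overlapped it. MXD1, MLX, MAX, MXI1 and MLXIP lay in the middle, between 7.38 and 25.1 RPKM in the 4 control groups. MAX was the steadiest of these, at 10.3 to 11.2 RPKM. MNT and MGA followed at 1.98 to 4.75 RPKM, and these neighbours overlapped in EV and in shControl of the FOXRED1 experiment. MXD3 and MXD4 were lowest in EV (2.01 and 2.24 RPKM) and in shControl of the YY2 experiment (2.58 and 2.39), where they overlapped each other. MXD4 was higher in the other control groups, at 7.96 RPKM in ND and 9.01 in shControl of the FOXRED1 experiment. MXD3 was 3.24 RPKM in ND and 0.909 in shControl of the FOXRED1 experiment. The shControl groups of the knockdown experiments were thus not alike, with MXD4 at 16.9 ± 0.652 and 63.6 ± 5.59 CPM and MLXIP at 119 ± 2.74 and 237 ± 7.63 CPM (SD, n = 3). The tables were scaled separately and experiment and control cannot be told apart, so each treatment was compared with its own control alone. The plot of CPM by library shows all 240 values.

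**Figure D1:**
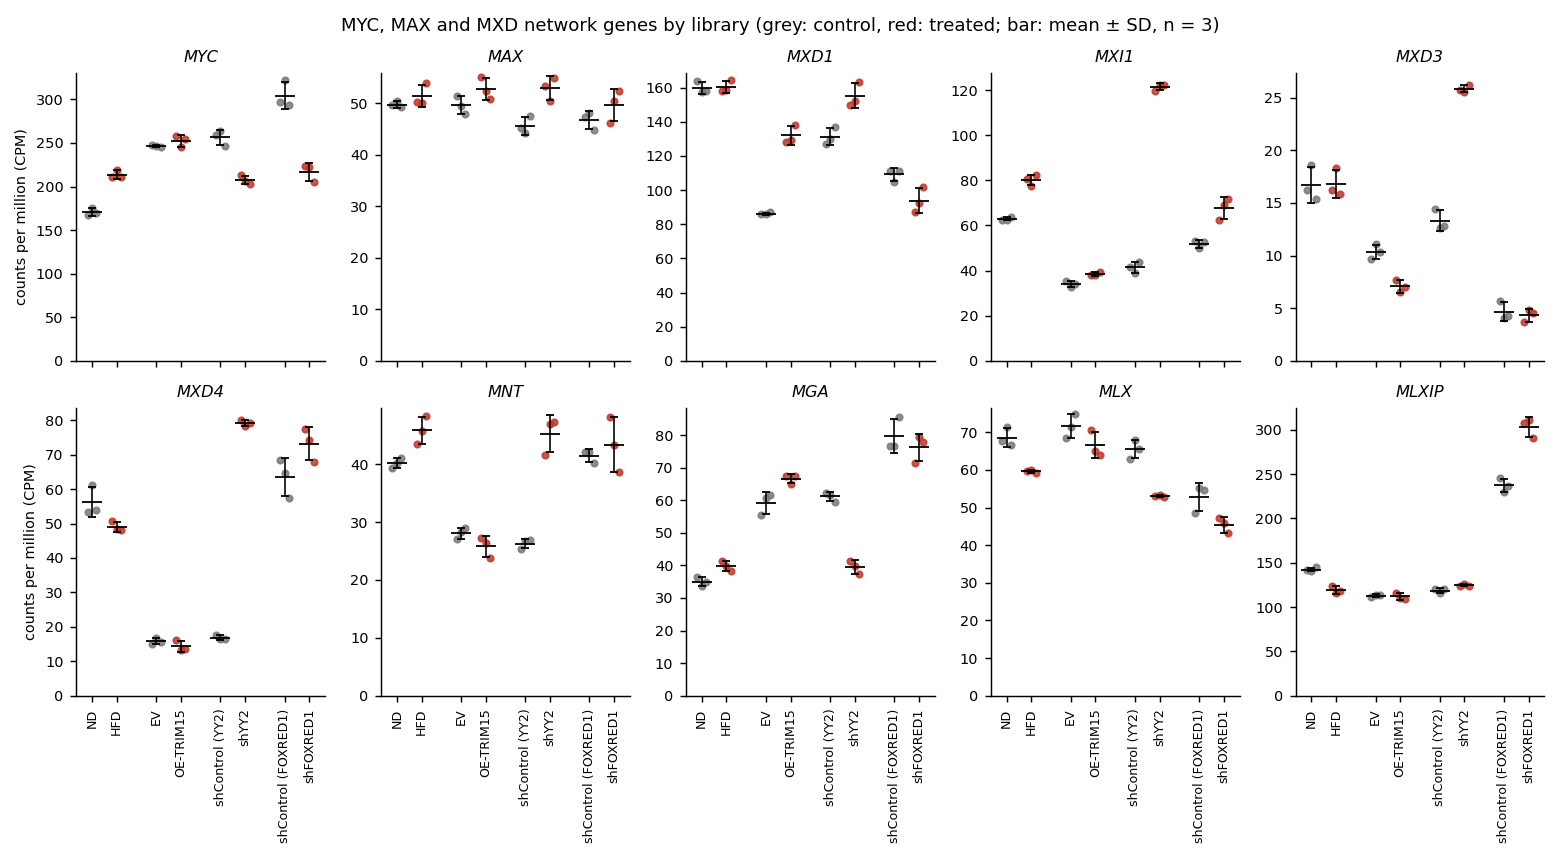
Each panel plots 1 member gene, with the 8 groups along the horizontal axis and CPM on the vertical axis from 0. Grey points are control libraries, red points treated libraries, and black bars the mean ± SD of 3 libraries. MXD4 and MXI1 in shYY2 stand farthest from their control, and MYC lies above ND in HFD and below shControl in both knockdowns.

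Each treatment was compared with its own control to ask which members differed. A gene is called when its p from the quasi-likelihood test of edgeR was under 0.05 after Benjamini-Hochberg adjustment across every tested gene. In HFD against ND, 4 members were called higher (MYC, MXI1, MNT and MGA) and 3 lower (MLX, MLXIP and MXD4), beside 25.6% of all 17012 genes tested called higher, 23.9% lower and 49.5% either way. The same 7 members did not overlap between the groups, against 56.2% of all genes. In OE-TRIM15 against EV, 3 members were called higher (MXD1, MXI1 and MGA) and 1 lower (MXD3). Of all 15745 genes there, 12.5% were called higher, 9.53% lower and 22.1% either way, and 4 members and 37.7% of genes did not overlap. In shYY2 against shControl, 7 members were called higher and 3 lower (MYC, MLX and MGA), beside 36.8% of 16006 genes called higher, 38.1% lower and 75% either way. All 10 were without overlap, as were 76.3% of genes. In shFOXRED1 against shControl, 3 members were called higher (MLXIP, MXI1 and MXD4) and 3 lower (MYC, MXD1 and MLX), beside 16.8% of 15730 genes called higher, 19.7% lower and 36.6% either way. There 5 members and 46.7% of genes did not overlap, and MXD4 was called although its groups overlapped. Without OE-TRIM15 replicate 1, 3 members were called lower in OE-TRIM15, and without shFOXRED1 replicate 2 or shControl replicate 3 only 1 was called lower in shFOXRED1. Every treatment moved many genes, and with 10 members the counts are given as a description beside these backgrounds.

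**Figure D2:**
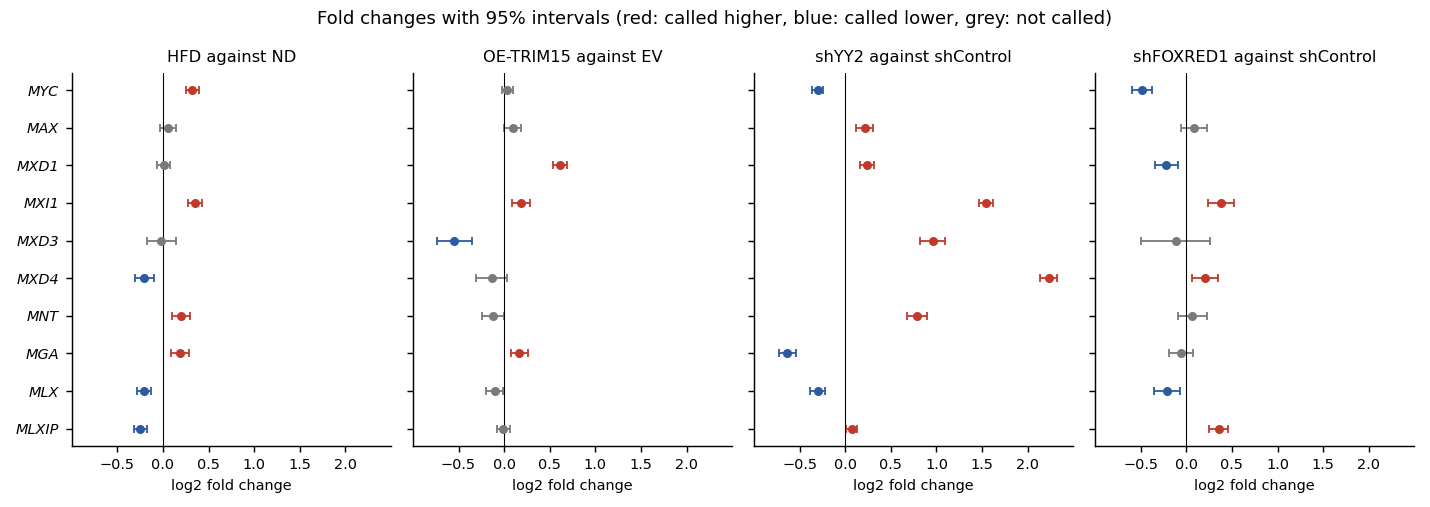
The log2 fold change of each member, treated over control, is plotted on the horizontal axis for the 4 comparisons, with 95% normal intervals from the standard errors. Red marks members called higher, blue members called lower and grey members not called. The 3 largest changes, of MXD4, MXI1 and MXD3, all lie in shYY2.

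MYC, the activator of the network, rose with the high-fat diet and fell in both knockdowns. Its levels were 211, 219 and 211 CPM in the 3 HFD libraries and 168, 176 and 169 in the 3 ND libraries. Every HFD library lay above every ND library, and the log2 fold change was 0.32 ± 0.035 SE, an increase of 24.9% (adjusted p = 1.35e-06). In OE-TRIM15 the levels were 258, 245 and 254 CPM against 248, 246 and 245 in EV. These groups overlapped, and the log2 fold change was 0.034 ± 0.032 SE (adjusted p = 0.486). In shYY2 MYC was 213, 206 and 203 CPM against 259, 264 and 246 in shControl. All shYY2 libraries were lower, and MYC fell by 19.0%, a log2 fold change of -0.30 ± 0.033 SE (adjusted p = 4.37e-07). In shFOXRED1 MYC was 223, 222 and 205 CPM against 297, 322 and 293 in shControl. The groups were again apart, and MYC fell by 28.7%, the largest of its 4 changes (log2 -0.49 ± 0.055 SE, adjusted p = 2.52e-06).

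MAX, the partner that MYC, the MXD proteins, MNT and MGA all need, moved little. It was 53.4, 50.4 and 55.0 CPM in shYY2 against 45.1, 44.2 and 47.6 in shControl. The groups did not overlap, and the log2 fold change was 0.21 ± 0.047 SE (adjusted p = 0.000698). In the other comparisons MAX was not called, with log2 fold changes of 0.052 in HFD (95% interval -0.034 to 0.14), 0.093 in OE-TRIM15 (0.0018 to 0.18) and 0.086 in shFOXRED1 (-0.056 to 0.23). All 95% intervals given here are normal intervals from the standard errors, and are narrower than the quasi-likelihood test would give. In OE-TRIM15, where the interval of MAX lies above 0, the unadjusted p of that test was 0.0644. The mean of MAX stayed between 45.7 and 52.9 CPM over the 8 groups.

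The MXD family of MAX-binding repressors carried the largest changes, and all 4 rose in shYY2. MXD4, whose promoter E-box is shown above, was 80.2, 78.3 and 79.2 CPM in shYY2 and 17.6, 16.4 and 16.6 in shControl. The lowest shYY2 library was far above the highest control, and the fold was 4.69 (log2 2.23 ± 0.047 SE, adjusted p = 1.78e-15). MXI1 was 119.6, 122 and 122 CPM in shYY2 and 41.8, 39.0 and 43.7 in shControl. It rose 2.92-fold with no overlap (log2 1.55 ± 0.04 SE, adjusted p = 2.03e-14). MXD3, the member of the family known for expression in cells in S phase, was 25.7, 25.6 and 26.2 CPM in shYY2 and 14.4, 12.6 and 12.8 in shControl. It rose 1.94-fold (log2 0.96 ± 0.068 SE, adjusted p = 3.01e-09), again with no overlap. MXD1, first known from differentiating cells, was 149.8, 152 and 163 CPM in shYY2 and 127, 129.7 and 137 in shControl. Its rise was the smallest of the family, 1.18-fold (log2 0.24 ± 0.039 SE, adjusted p = 3.64e-05).

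In OE-TRIM15 the family split. MXD1 was 128, 129 and 138 CPM in OE-TRIM15 and 86.0, 85.8 and 86.9 in EV. The groups were far apart and the rise was 1.53-fold (log2 0.61 ± 0.038 SE, adjusted p = 4.86e-08), the largest change of a member in this experiment. MXD3 went the other way, at 7.70, 6.50 and 7.02 CPM against 9.72, 11.1 and 10.3 in EV. It fell with no overlap (log2 -0.54 ± 0.10 SE, adjusted p = 0.0013). MXI1 was 38.1, 38.0 and 39.5 CPM against 35.3, 32.6 and 34.0. This rise was small (log2 0.18 ± 0.049 SE, adjusted p = 0.0164), and the call was lost with DESeq2 (adjusted p = 0.0506) and without OE-TRIM15 replicate 3, EV replicate 2 or EV replicate 3 (adjusted p = 0.0510, 0.0914 and 0.0681). MXD4 was not called at 16.1, 13.1 and 13.7 CPM against 15.0, 16.7 and 15.7 (log2 -0.14, adjusted p = 0.287), but was called lower without OE-TRIM15 replicate 1 (adjusted p = 0.0349).

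With the high-fat diet MXI1 was 80.6, 77.6 and 82.4 CPM against 62.6, 62.5 and 63.8 in ND. All HFD libraries were higher, and its log2 fold change of 0.35 ± 0.039 SE was close to that of MYC in the same libraries (adjusted p = 1.22e-06). MXD4 was 50.7, 48.3 and 48.1 CPM in HFD and 53.4, 61.1 and 54.0 in ND. It fell with no overlap (log2 -0.21 ± 0.053 SE, adjusted p = 0.00402). MXD1 and MXD3 were not called, with mean levels of 160.4 ± 3.48 against 159.7 ± 3.55 CPM and 16.8 ± 1.33 against 16.7 ± 1.69 CPM (SD, n = 3). In shFOXRED1 MXI1 was 62.2, 69.0 and 71.6 CPM against 53.1, 50 and 52.7 in shControl. It rose with no overlap (log2 0.38 ± 0.07 SE, adjusted p = 0.000399), so that MXI1 was called higher in all 4 experiments. MXD1 was 87.2, 92.5 and 102 CPM against 111, 105 and 111. It fell (log2 -0.22 ± 0.065 SE, adjusted p = 0.0132), a call lost without shFOXRED1 replicate 1 or 2 or shControl replicate 1 or 3 (adjusted p from 0.0505 to 0.0860). MXD4 was 77.6, 74.1 and 67.9 CPM against 68.5, 64.7 and 57.5, with 1 shFOXRED1 library below the highest control. Its call (log2 0.20 ± 0.075 SE, adjusted p = 0.0419) was lost without shFOXRED1 replicate 1 or 2 or shControl replicate 2 or 3 (adjusted p from 0.0919 to 0.219). MXD3 was low, at 3.66, 4.87 and 4.52 CPM against 5.72, 4.05 and 4.28, and was not called.

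The ratio of these repressors to MYC sums up both sides. The RPKM values of MXD1, MXI1, MXD3 and MXD4 were added in each library and set against MYC, as a description with no test. Per 100 RPKM of MYC, the family summed to 92.8, 96.8 and 101 RPKM in shYY2 and 39.8, 38.3 and 43.8 in shControl. In every shYY2 library the MXD mRNAs thus came close to the level of MYC, and no shYY2 library overlapped a control. The values were 52.3, 55.4 and 61.5 in shFOXRED1 against 40.3, 34.7 and 38.8 in shControl, and 37.5, 38.9 and 39.7 in OE-TRIM15 against 30.5, 30.6 and 31.0 in EV. In these comparisons too the treated libraries all lay higher. In the diet experiment the order was the opposite, with 75.2, 71.4 and 76.2 in HFD and 89.5, 86.4 and 87.5 in ND. MXD4 and MXI1 together made up 56.1 ± 0.890% (SD, n = 3) of the MXD sum in shYY2 and 32.9 ± 0.800% in its shControl. Their mean share was 61.6% in shFOXRED1 and already 52.8% in its shControl. It was 46.1% in HFD and 43.2% in ND, and 31.9% in OE-TRIM15 and 38.1% in EV.

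**Figure D3:**
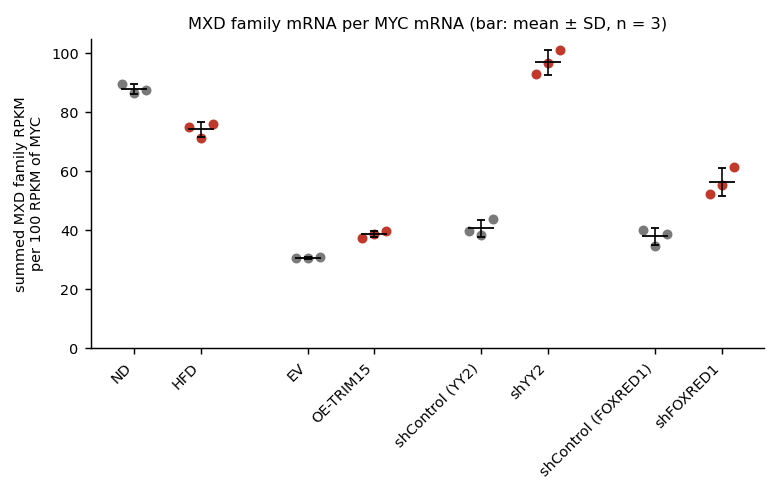
The vertical axis gives the summed RPKM of MXD1, MXI1, MXD3 and MXD4 per 100 RPKM of MYC, from 0, for each library of the 8 groups. Grey points are controls, red points treated libraries, and bars the mean ± SD of 3 libraries. The shYY2 libraries lie between 92.8 and 101 against 38.3 to 43.8 in their shControl, and HFD is the only treated group below its control.

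MNT, the broadly expressed repressor with an E-box in its promoter, rose in shYY2 and in HFD. It was 41.6, 46.9 and 47.3 CPM in shYY2 and 25.3, 26.6 and 26.8 in shControl. The groups did not overlap and the rise was 1.72-fold (log2 0.79 ± 0.058 SE, adjusted p = 4.37e-09). It was 43.5, 45.7 and 48.3 CPM in HFD and 39.3, 40.1 and 41.1 in ND. That difference was small but larger than the spread (log2 0.20 ± 0.048 SE, adjusted p = 0.00266). MNT was not called in OE-TRIM15 (log2 -0.12, adjusted p = 0.185) or shFOXRED1 (log2 0.067, adjusted p = 0.561).

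MGA, the MAX partner of the PCGF6 complex, fell in shYY2 while the other repressors rose. It was 41.4, 39.7 and 37.2 CPM in shYY2 and 62.4, 61.6 and 59.6 in shControl. No library overlapped, and MGA fell by 35.6%, a log2 fold change of -0.64 ± 0.046 SE (adjusted p = 3.82e-09). It was 41.4, 39.8 and 38.2 CPM in HFD and 36.5, 33.6 and 34.9 in ND, and 67.5, 64.9 and 67.3 in OE-TRIM15 and 55.4, 60.7 and 61.7 in EV. Both were small rises with no overlap (log2 0.19 ± 0.05 SE, adjusted p = 0.00546, and 0.17 ± 0.046 SE, adjusted p = 0.0189), and the latter call was lost without EV replicate 1 (adjusted p = 0.117). In shFOXRED1 MGA was not called (log2 -0.062, adjusted p = 0.514). Of the other genes of its complex that were tested, 1 rose and 8 of 10 fell in shYY2, beside 36.8% and 38.1% of all genes. RING1 and EHMT2, also listed for the complex, did not pass the filter on low counts in any experiment and were not tested. L3MBTL2, which binds histone tails, fell from 25.9 to 10.8 CPM (log2 -1.27 ± 0.077 SE), E2F6 from 25.1 to 13.4 (log2 -0.90 ± 0.063 SE) and TFDP1 from 188 to 103 (log2 -0.86 ± 0.037 SE). The gene that rose was RNF2, a ubiquitin ligase of the complex (log2 0.49 ± 0.044 SE). Of all genes, 25.6% were called higher and 23.9% lower in HFD, 12.5% and 9.53% in OE-TRIM15 and 16.8% and 19.7% in shFOXRED1. The counts of the complex were 3 higher and 4 lower in HFD, 1 and 2 in OE-TRIM15 and 2 and 5 in shFOXRED1, where CBX1 fell from 79.4 to 37.8 CPM (log2 -1.07 ± 0.067 SE). Leaving out single libraries moved these to 0 to 2 lower in OE-TRIM15, and to 0 to 2 higher and 3 to 5 lower in shFOXRED1.

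MLX, the partner of the glucose sensors, was lower in 3 of 4 experiments. It was 53.1, 53.2 and 52.8 CPM in shYY2 and 63.0, 67.9 and 65.6 in shControl. The 3 shYY2 libraries lay close together and below every control (log2 -0.30 ± 0.04 SE, adjusted p = 4.39e-06). It was 59.7, 60.0 and 59.2 CPM in HFD and 67.8, 71.5 and 66.5 in ND, again with no overlap (log2 -0.21 ± 0.041 SE, adjusted p = 0.000491). It was 47.3, 45.9 and 43.2 CPM in shFOXRED1 and 48.6, 55.1 and 54.7 in shControl. This fall (log2 -0.21 ± 0.074 SE, adjusted p = 0.0304) was not called without shFOXRED1 replicate 2 or shControl replicate 2 or 3 (adjusted p = 0.0746, 0.138 and 0.112). In OE-TRIM15 MLX was not called (log2 -0.10, adjusted p = 0.142), except without OE-TRIM15 replicate 1 (adjusted p = 0.00989).

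MLXIP, which carries glucose signals with MLX, rose with FOXRED1 knockdown and fell with the diet. It was 307, 312 and 291 CPM in shFOXRED1 and 246, 230.4 and 236 in shControl. The groups were apart, and the log2 fold change was 0.35 ± 0.051 SE, an increase of 27.7% (adjusted p = 3.74e-05). It was 124, 116 and 118 CPM in HFD and 142, 141 and 145 in ND. All HFD libraries were lower (log2 -0.25 ± 0.037 SE, adjusted p = 2.92e-05). In shYY2 the values of 124, 126 and 124 CPM lay just above 120.4, 115 and 120.0 in shControl. That call (log2 0.071 ± 0.031 SE, adjusted p = 0.0472) was lost with no filter on counts (adjusted p = 0.202), with DESeq2 (0.0804) and when any of the 6 libraries was left out (0.0540 to 0.267). In OE-TRIM15 the log2 fold change was -0.011 (adjusted p = 0.875). The related sensor MLXIPL was 21.5, 18.0 and 20.3 CPM in shYY2 and 2.09, 2.01 and 1.77 in shControl. It rose 10.2-fold (log2 3.35 ± 0.12 SE, adjusted p = 5.97e-13), but had been near 14.6 CPM in the shControl of the FOXRED1 experiment already, where it was not called.

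The targets of MLX dimers that respond most to glucose phosphates, TXNIP and ARRDC4, moved together in OE-TRIM15. TXNIP, an arrestin that limits glucose uptake, was 547, 563 and 571 CPM in OE-TRIM15 and 186, 186 and 185 in EV. It rose 3.02-fold with a wide gap between groups (log2 1.59 ± 0.031 SE, adjusted p = 5.50e-14). ARRDC4, a related arrestin, was 16.8, 17.4 and 18.0 CPM against 7.74, 8.22 and 7.68. It rose 2.20-fold (log2 1.14 ± 0.079 SE, adjusted p = 1.57e-07), while neither MLX nor MLXIP was called there. In HFD both fell without overlap, TXNIP to 504, 497 and 500.0 CPM from 657, 631 and 652 in ND (log2 -0.37 ± 0.033 SE) and ARRDC4 to 10.1, 10.7 and 10.9 from 14.2, 14.6 and 14.6 (log2 -0.46 ± 0.071 SE). In shYY2 they parted. TXNIP was 968, 981 and 974 CPM against 568, 587 and 594 in shControl, a rise of 1.67-fold, and ARRDC4 was 11.4, 10.9 and 11.7 against 21.0, 19.9 and 20.3, a fall (log2 -0.84 ± 0.071 SE). In shFOXRED1 TXNIP was 288, 292 and 297 CPM against 255, 272 and 275. Its adjusted p was 0.053, and it was called with the replicate block (0.00438), with 10 counts required in every library (0.0319), with all 24 libraries in one fit (0.00383) and without shFOXRED1 replicate 3 (0.0281). ARRDC4 fell there (log2 -0.49 ± 0.15 SE, adjusted p = 0.0138), a call lost without shFOXRED1 replicate 2 or shControl replicate 3 (adjusted p = 0.0614 and 0.0665).

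**Figure D4:**
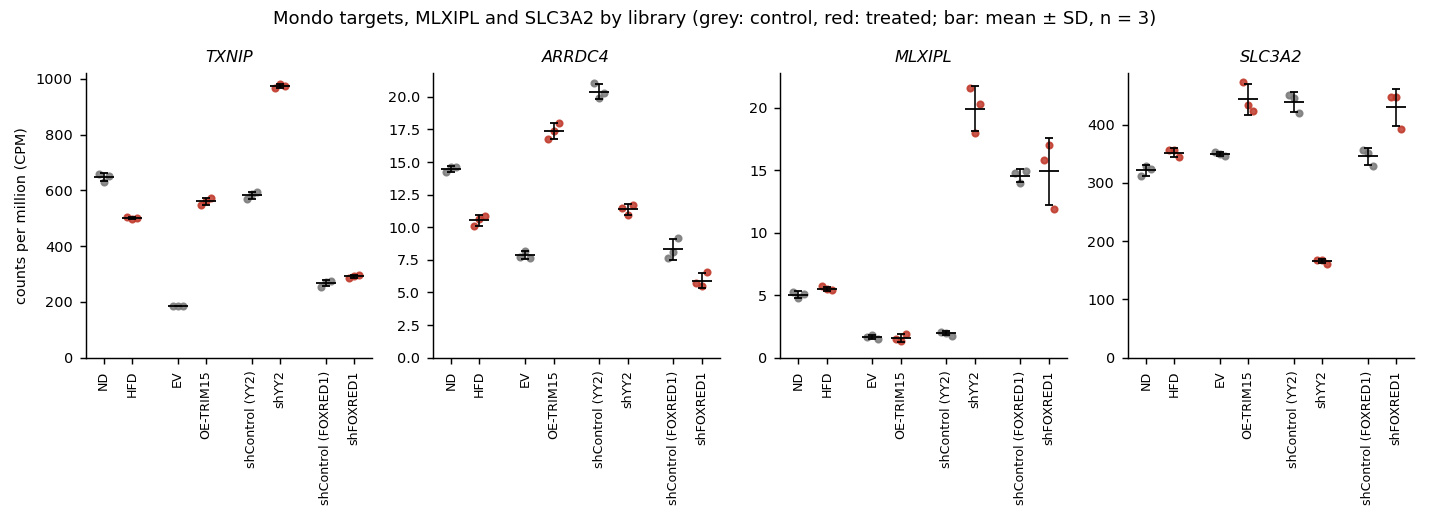
The CPM values are plotted from 0 for TXNIP, ARRDC4, MLXIPL and SLC3A2 in the 24 libraries, with controls in grey, treated libraries in red and bars for the mean ± SD of 3 libraries. TXNIP and ARRDC4 both rise in OE-TRIM15 and fall in HFD, MLXIPL rises in shYY2, and SLC3A2 falls in shYY2 and rises in the other 3 comparisons.

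The other known targets of the Mondo proteins, genes of glycolysis and fat synthesis, moved in both directions, so the whole list of 10 tested genes had no common direction in any experiment. Of all genes tested, 25.6% were called higher and 23.9% lower in HFD, and 12.5% and 9.53% in OE-TRIM15. The shares were 36.8% and 38.1% in shYY2 and 16.8% and 19.7% in shFOXRED1. In HFD 6 rose and 4 fell, among them KLF10, a transcription factor (log2 0.67 ± 0.038 SE), ACLY, which makes acetyl-CoA for fat synthesis (log2 0.46 ± 0.035 SE), and KHK, the fructose kinase (log2 0.49 ± 0.092 SE), all higher. In OE-TRIM15 3 rose and 2 fell. KLF10 rose with TXNIP and ARRDC4 (log2 1.01 ± 0.036 SE), and TKT of the pentose phosphate pathway fell (log2 -0.27 ± 0.036 SE), and 4 fell without OE-TRIM15 replicate 1. In shYY2 3 rose, led by TKT (log2 1.18 ± 0.031 SE), and 7 fell, led by FASN, the fatty acid synthase (log2 -1.01 ± 0.036 SE). In shFOXRED1 3 rose, led by PFKFB3, an activator of glycolysis (log2 0.78 ± 0.057 SE), and 1 fell. That last split is unsteady, at 5 and 3 with the replicate block, and from 1 to 6 higher and 0 to 2 lower when single libraries were left out.

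The known targets of MYC itself were read in 3 lists, beside all-gene medians that lay between -0.012 and 0.012 on the log2 scale in the 4 comparisons. The shares of all genes called higher and lower were 36.8% and 38.1% in shYY2, 16.8% and 19.7% in shFOXRED1, 25.6% and 23.9% in HFD and 12.5% and 9.53% in OE-TRIM15. Of 29 tested genes for making ribosomes, 28 fell and 0 rose in shYY2, with a median log2 fold change of -1.43. RRS1 fell from 36.5 to 7.05 CPM (log2 -2.37 ± 0.068 SE), RRP9 from 36.8 to 9.46 (log2 -1.96 ± 0.069 SE) and NOP56, a core protein of the small nucleolar particles, from 347 to 96.3 (log2 -1.85 ± 0.032 SE). In shFOXRED1 14 of 29 fell and 2 rose (median -0.21), led by NOLC1, a nucleolar scaffold (log2 -0.96 ± 0.052 SE), PUS7 (-0.41) and MRTO4 (-0.40). RRS1 rose there (log2 0.31 ± 0.10 SE), and the other gene called higher lay under the 1 CPM required for naming. The highest log2 fold change of the list there was 1.58. In HFD 17 of 30 rose and 0 fell (median 0.16), with RRS1 (0.59), EXOSC5 (0.41) and NIP7 (0.40) in front. In OE-TRIM15 12 of 30 fell and 1 rose (median -0.11), led by NOP16 (-0.25), BOP1 (-0.24) and TBRG4 (-0.21). When single libraries were left out, the number that rose varied from 0 to 2 there and from 0 to 4 in shFOXRED1. Without OE-TRIM15 replicate 2 or EV replicate 1, 2 or 3 the number that fell in OE-TRIM15 was 5, 6, 6 or 4. Where edgeR called 0 genes of the list in a direction, in HFD and shYY2, 0 had an unadjusted p under 0.05 in that direction and DESeq2 called 0.

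The list of growth and metabolism targets went the same way as MYC in HFD and in both knockdowns. In shYY2 26 of 29 tested genes fell and 2 rose (median log2 fold change -1.04). ODC1, the first enzyme of polyamine synthesis, fell from 422 to 98.8 CPM (log2 -2.09 ± 0.029 SE), SRM, the spermidine synthase, from 69.5 to 15.3 (log2 -2.18 ± 0.073 SE) and TFRC, the transferrin receptor, from 566 to 137 (log2 -2.05 ± 0.03 SE). In shFOXRED1 20 of 28 fell and 2 rose (median -0.28). ODC1 (-0.76), the cell cycle factor E2F1 (-0.86) and TERT of telomerase (-1.01, from 2.14 to 1.07 CPM) fell most, and SLC3A2 and APEX1 rose. In HFD 16 of 28 rose and 3 fell (median 0.16). The chaperone HSPD1 rose from 419 to 889 CPM (log2 1.09 ± 0.039 SE), TFRC from 175 to 369 (log2 1.08 ± 0.038 SE) and PPAT of purine synthesis from 29.7 to 48.9 (log2 0.72 ± 0.045 SE). In OE-TRIM15, where MYC was not called, 4 rose and 12 of 28 fell (median -0.093), and 7 fell without EV replicate 2. When single libraries were left out, as few as 2 rose there and as few as 1 in each knockdown. ODC1 rose there (log2 0.29 ± 0.028 SE) and E2F1 fell (log2 -0.31 ± 0.061 SE). Which of these genes answered to MYC was not tested.

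**Figure D5:**
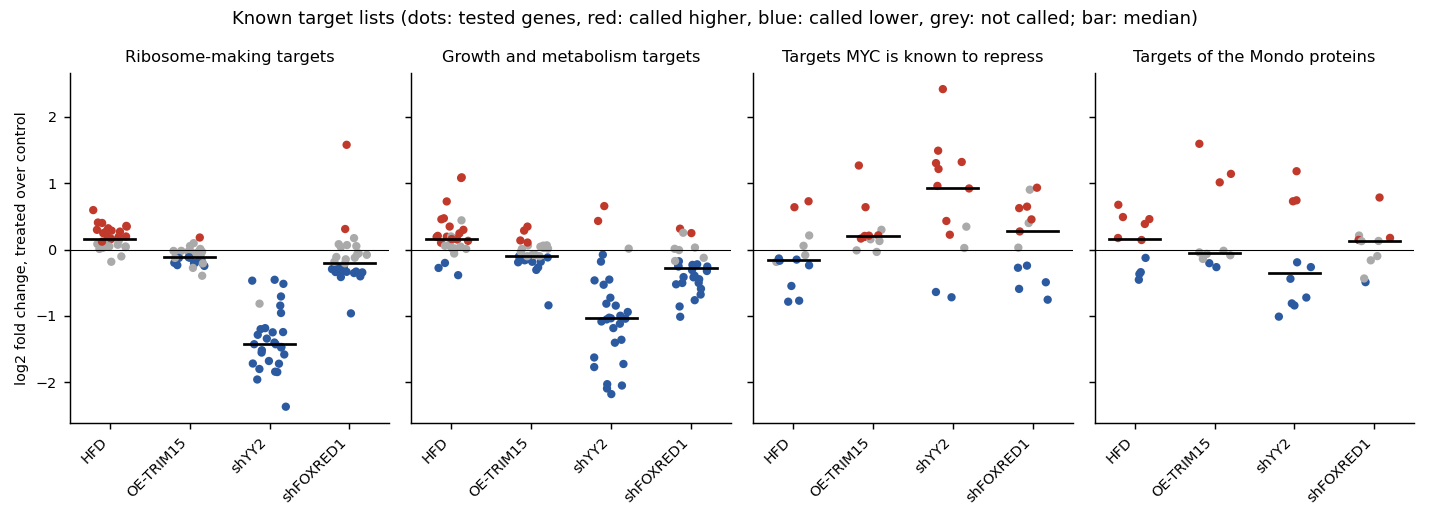
Each dot is the log2 fold change, treated over control, of 1 tested gene of 4 lists of known targets, in the 4 comparisons, with horizontal bars at the median. Red dots were called higher, blue dots lower and grey dots not called. The ribosome and growth lists lie mostly below 0 in shYY2, where 28 of 29 and 26 of 29 tested genes were called lower.

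Genes that MYC is known to repress mostly rose in shYY2. There 9 of 13 tested genes rose and 2 fell (median 0.92). CDKN1B, an inhibitor of cyclin-dependent kinases, rose from 49.3 to 138 CPM (log2 1.49 ± 0.042 SE), CCNG2 from 75.6 to 189 (log2 1.32 ± 0.032 SE) and CDKN1C from 0.804 to 4.32 (log2 2.42 ± 0.25 SE). CDKN1A, the best known of these inhibitors, fell instead, at 135, 136 and 134 CPM against 212, 211 and 207 (log2 -0.64 ± 0.029 SE). GADD45A, a stress gene, also fell, from 139 to 84.2 CPM (log2 -0.72 ± 0.035 SE). In HFD 7 of 13 fell and 2 rose (median -0.15). CDKN1B (-0.55) and THBS1 (-0.79) fell, while CDKN1A rose from 196 to 305 CPM (log2 0.64 ± 0.034 SE) and NDRG2 from 18.6 to 30.9 (log2 0.73 ± 0.059 SE). In OE-TRIM15 7 of 12 rose and 0 fell (median 0.20), with 0 lower at an unadjusted p under 0.05 and 0 by DESeq2, led by GADD45A (log2 1.27 ± 0.042 SE) and CDKN2B (0.64). In shFOXRED1 5 rose and 5 fell of 13 (median 0.27), with CEBPA (0.93) and CDKN2B (0.65) higher and NDRG2 (-0.76) and THBS1 (-0.59) lower.

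SLC3A2, the heavy chain of amino acid transporters, stands in the growth list and was examined by the study downstream of FOXRED1 together with c-MYC. It was 447, 448 and 393 CPM in shFOXRED1 and 356, 351 and 329 in shControl. It rose with no overlap (log2 0.31 ± 0.057 SE, adjusted p = 0.00033), in the same libraries in which MYC mRNA fell. By Western blot the study found more c-MYC protein after FOXRED1 knockdown. It also reported that c-MYC knockdown or the mTOR inhibitor everolimus reversed the rise of SLC3A2. MYC protein was not measured here, so the MYC mRNA is no check of that result. In shYY2 SLC3A2 was 168, 168 and 162 CPM against 451, 445 and 420.3. It fell 2.65-fold (log2 -1.40 ± 0.033 SE, adjusted p = 7.29e-15). It rose in OE-TRIM15 (473, 434 and 423 against 352, 349 and 346 CPM, log2 0.35 ± 0.038 SE) and slightly in HFD (log2 0.13 ± 0.035 SE). SLC7A5, its light chain partner for leucine, was 86.4, 86.6 and 84.2 CPM in shYY2 and 287, 289 and 274 in shControl (log2 -1.73 ± 0.033 SE), and was not called in shFOXRED1 (log2 0.011).

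Of the other MYC genes, MYCN did not exceed 0.433 CPM, or 8 counts, in any of the 24 libraries and was not tested. MYCL was low. It was 2.15, 1.97 and 2.39 CPM in HFD and 1.65, 1.34 and 1.26 in ND, a rise with no overlap (log2 0.64 ± 0.17 SE, adjusted p = 0.00484), and was not called in the other comparisons. PVT1, the long RNA gene beside MYC, was 26.1, 26.0 and 26.9 CPM in shYY2 and 51.1, 49.1 and 47.0 in shControl. It fell with no overlap (log2 -0.90 ± 0.05 SE).

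Among 16 factors known to act on transcription of MYC, 8 fell and 3 rose in shYY2, beside 38.1% of all genes lower and 36.8% higher, so that the share called was not above the 75% of all genes. HNRNPK fell from 809.6 to 418 CPM (log2 -0.95 ± 0.029 SE) and FUBP1, which binds far upstream of MYC, from 247 to 163 (log2 -0.60 ± 0.031 SE), while STAT3 rose (log2 0.73 ± 0.032 SE). Of all genes, 19.7% were called lower and 16.8% higher in shFOXRED1, 23.9% and 25.6% in HFD and 9.53% and 12.5% in OE-TRIM15. In shFOXRED1 4 of the factors fell and 0 rose, with TCF7L2 of the WNT pathway (-0.29) and STAT3 (-0.28) lower. In HFD 7 rose and 1 fell, led by CDK8 of the Mediator (0.47) and RBPJ of the NOTCH pathway (0.42). In OE-TRIM15 8 rose and 0 fell, all by small amounts (FUBP1 0.22). Without EV replicate 1 or 2 only 3 rose there, without EV replicate 3 or OE-TRIM15 replicate 2 only 5, and DESeq2 called 5. Of the edgeR counts of 0, that in OE-TRIM15 was 0 at an unadjusted p under 0.05 and that in shFOXRED1 was 1, and DESeq2 called 0 in both. Counts of 0 or 1 in this list became 1 or 2 without ND replicate 2, OE-TRIM15 replicate 1 or shFOXRED1 replicate 3.

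Genes that act on the stability of MYC protein moved both ways in each comparison, with 8 higher and 11 lower of 21 in shYY2, 3 and 7 in shFOXRED1, 6 and 7 in HFD and 1 and 5 in OE-TRIM15. Beside these stand 36.8% of all genes higher and 38.1% lower in shYY2, 16.8% and 19.7% in shFOXRED1, 25.6% and 23.9% in HFD and 12.5% and 9.53% in OE-TRIM15, and the counts are given as a description. In shYY2 CIP2A, which shields MYC from a phosphatase, fell from 51.9 to 18.3 CPM (log2 -1.50 ± 0.051 SE), SKP2 of a ubiquitin ligase fell (log2 -1.03 ± 0.046 SE) and FBXO32, another ligase subunit, rose from 23.3 to 82.6 (log2 1.82 ± 0.044 SE). In shFOXRED1 CIP2A (-0.71) and PLK1 (-0.56) fell, and FBXW7, the ligase that marks phosphorylated MYC, rose from 28.1 to 38.7 CPM (log2 0.46 ± 0.09 SE). In HFD SET, an inhibitor of the same phosphatase, rose (log2 0.55 ± 0.042 SE), and SKP2 (-0.66), FBXO32 (-0.53) and FBXW7 (-0.28) fell. In OE-TRIM15 FBXO32 rose (log2 0.69 ± 0.083 SE) and PLK1 (-0.26) and SKP2 (-0.25) fell. Without OE-TRIM15 replicate 1, 2 genes rose there, and without EV replicate 1, 3 fell.

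Coactivators that MYC recruits fell broadly in shYY2, with 17 of 21 tested genes lower and 2 higher (median -0.37), beside 38.1% of all genes lower and 36.8% higher. RUVBL1, a helicase of the acetyltransferase complexes, fell from 122 to 52.2 CPM (log2 -1.22 ± 0.036 SE), ACTL6A by a similar amount (-1.05), and WDR5, which tethers MYC to chromatin, from 95.7 to 55.2 (log2 -0.79 ± 0.039 SE). The counts were 5 higher and 6 lower in shFOXRED1, where CREBBP rose (0.50) and RUVBL1 fell (-0.40), 3 and 8 in HFD, and 4 and 4 in OE-TRIM15. Of all genes, 16.8% were called higher and 19.7% lower in shFOXRED1, 25.6% and 23.9% in HFD and 12.5% and 9.53% in OE-TRIM15. Of the 19 genes listed as corepressors, 10 rose and 7 fell in shYY2, where 36.8% of all genes rose, 38.1% fell and 75% were called either way. KDM5B, a histone demethylase, rose (log2 0.76 ± 0.03 SE) and BRMS1 fell (log2 -0.99 ± 0.05 SE). In shFOXRED1 3 rose, among them the scaffolds SIN3B (0.40) and SIN3A (0.31), and 3 fell. The counts were 5 and 4 in HFD and 4 and 1 in OE-TRIM15. Single libraries decided several of these small counts. Coactivators called higher numbered 2 in OE-TRIM15 without EV replicate 1, 2 or 3, 5 in HFD without ND replicate 3, and 2, 3 and 3 in shFOXRED1 without shFOXRED1 replicate 1 or 2 or shControl replicate 3. Those called lower in OE-TRIM15 numbered 7 without OE-TRIM15 replicate 1. Corepressors called lower numbered 7 in HFD without ND replicate 2, and 3 in OE-TRIM15 without OE-TRIM15 replicate 1 and 0 without any other library.

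Whether the members responded alike to both knockdowns was tested on the difference of the effects, each against its own shControl. The difference was called for 8 of 10 members, beside 54.4% of 17146 genes. Given as the log2 fold change in shYY2 minus that in shFOXRED1, the difference was positive for 5 repressors, at 2.03 ± 0.095 SE for MXD4 (adjusted p = 1.55e-13), 1.17 ± 0.081 for MXI1, 1.08 ± 0.18 for MXD3, 0.72 ± 0.10 for MNT and 0.46 ± 0.076 for MXD1, which rose in shYY2 and fell in shFOXRED1. It was negative for MGA (-0.57 ± 0.084), which fell in shYY2 and was not called in shFOXRED1, and for MLXIP (-0.28 ± 0.06), which rose more in shFOXRED1. MYC fell more in shFOXRED1, by 0.18 ± 0.066 (adjusted p = 0.0232), a call lost without shYY2 replicate 1, shControl replicate 3 of the YY2 experiment or shControl replicate 2 of the FOXRED1 experiment (adjusted p = 0.0698, 0.0546 and 0.0991). For MAX and MLX the difference was not called, with 95% intervals of -0.039 to 0.29 and -0.25 to 0.068. SLC3A2 differed by -1.72 ± 0.071 (adjusted p = 1.85e-14), rising in shFOXRED1 and falling in shYY2. FOXRED1 mRNA itself fell in both, in shYY2 from 32.8 to 17.7 CPM (log2 -0.89 ± 0.064 SE). Its difference of effects was not called (adjusted p = 0.480).

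The same test between the diet and TRIM15 experiments, which share no libraries and differ in tumour and culture, called 6 of 10 members, beside 35.2% of 17160 genes. Given as the log2 fold change in HFD minus that in OE-TRIM15, the difference was 0.32 ± 0.046 for MYC (adjusted p = 1.66e-05), 0.35 ± 0.077 for MNT and 0.20 ± 0.059 for MXI1, each called higher in HFD. Of these, MXI1 was also called higher in OE-TRIM15, by less (log2 0.18). The difference was 0.56 ± 0.13 for MXD3, which fell in OE-TRIM15 and was not called in HFD. It was -0.57 ± 0.051 for MXD1 (adjusted p = 2.77e-08), which rose in OE-TRIM15 and was not called in HFD, and -0.21 ± 0.051 for MLXIP, which fell in HFD and was not called in OE-TRIM15. TXNIP, up in one and down in the other, differed by -1.93 ± 0.043 (adjusted p = 2.38e-17), and ARRDC4 also differed (-1.56 ± 0.10). The call of MXI1 was lost with all 24 libraries in one fit (adjusted p = 0.0586). For MAX, MXD4, MLX and MGA the difference was not called, with intervals of -0.13 to 0.11, -0.24 to 0.16, -0.20 to 0.05 and -0.085 to 0.19.

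The genes whose 4 log2 fold changes lay closest to those of MYC were ATP6V1A, OPA1, PIGK, PRPS2 and LRPPRC, among 14519 genes tested in all experiments. Their root mean square difference from MYC over the 4 comparisons was 0.037, 0.041, 0.053, 0.054 and 0.056 on the log2 scale. ATP6V1A, a subunit of the proton pump of acidic organelles, had log2 fold changes of 0.37 in HFD, 0.063 in OE-TRIM15, -0.29 in shYY2 and -0.54 in shFOXRED1. OPA1, which fuses the inner mitochondrial membrane, had 0.39, 0.024, -0.30 and -0.52. All 5 had values above 0 in HFD and below 0 in both knockdowns, which follows from how they were chosen.

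Some members share exon sequence with other genes in GENCODE 29, and whether the counting used strand is not given in the sources used here. Of the exon bases of MXD3, 22.5% also lie in exons of PRELID1 on the other strand and 18.0% in exons of RAB24 on the same strand. Of those of MLX, 18.1% lie in exons of PSMC3IP, and of those of MNT, 12.2% lie in exons of AC006435.1, both on the other strand. Reads from these stretches cannot be told apart, so the levels of MXD3, MLX and MNT are less certain than those of MXD4, MXI1 and MXD1, for which at most 4.45% of exon bases are shared with any 1 gene.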

How the data were processed

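RNA of 24 OE33 libraries, 3 in each of 8 groups, was extracted with an RNeasy kit and made into strand-specific libraries per the labels, while the study's methods name TRIzol and a NEBNext kit without the word directional, so whether the libraries kept strand is uncertain. The authors deposited whole-number read counts per Ensembl gene, 1 table for each experiment, without normalization. The builds hg38 and mm10 are named in the submitters' processing notes. The aligner, the counter, the use of strand and any removal of mouse reads from the tumours are not given in the sources used here. Counts were tested within each experiment with edgeR 4.0.16 in R 4.3.3 (quasi-likelihood test, TMM scaling). Genes passed filterByExpr with a minimum count of 10 and a minimum total of 15. P-values were adjusted over all genes tested (Benjamini-Hochberg), and 0.05 was the threshold. Differences between effects were contrasts in a fit of both experiments. RPKM used the exon length of GENCODE 29. The members and lists were chosen with earlier results of these data known. Genes named from a list were up to 3 in each direction with the largest called changes at 1 CPM or more, with TXNIP, ARRDC4, SLC3A2, SLC7A5 and CDKN1A always included. Alternatives were DESeq2 1.42.0 and its size factors, other count filters, a replicate block, all 24 libraries in one fit and each library left out. The code was tested on simulated data. No pair of libraries held identical counts. Depth was 14299807 to 45994561 counts per library.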

Additional observations from a re-analysis of the deposited data

How the results depend on the processing

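With other scaling, filters, DESeq2, the replicate block or all 24 libraries in one fit, all 56 counts of members called stayed within 1.5 times the reported value. With single libraries left out, 69 of 72 did. Members called lower ranged from 1 to 3 in OE-TRIM15 and from 1 to 3 in shFOXRED1. The replicate numbers were not taken as pairs, since nothing in the labels ties them and same-number libraries correlated by -0.050 to 0.16 over all tested genes. Over genes above 10 CPM, the same-number pairs of shFOXRED1 and its shControl all exceeded 0.1 (0.22, 0.13 and 0.42), while replicate 2 of shFOXRED1 correlated more with shControl replicate 1 (0.21). The replicate block changed none of 60 member calls, but TXNIP in shFOXRED1 was called with it (adjusted p = 0.00438).

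The results that changed sign were not called under any setting. With at least 10 counts in every library, MXD1 in HFD was -0.0027 on the log2 scale. With the replicate block, MXD3 in HFD was 0.0071. With single libraries left out, the values ranged from -0.0081 to 0.031 for MXD1, -0.075 to 0.079 for MXD3 and -0.089 to 0.011 for FOXRED1 in HFD, and from -0.042 to 0.0057 for MLXIP in OE-TRIM15. In shFOXRED1 they ranged from -0.012 to 0.14 for MNT, -0.017 to 0.057 for SLC7A5 and -0.21 to 0.057 for MXD3. For the difference of HFD and OE-TRIM15 the ranges were -0.052 to 0.024 for MAX and -0.097 to 0.064 for MXD4. The cause was not tested.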
